A study of Bos taurus with 16 samples.

Results

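AQP1 and AQP3 are membrane water channels, and their kidney transcripts were followed here through rounds of linear RNA amplification in cattle (Bos taurus). The genes were chosen with earlier results of these data known. All spots that the array's probe-to-gene table assigns to either symbol were taken, whatever their values. They are 8 of the 16896 spots and form 4 of the 8448 spotted cDNA clones, each printed as 2 spots: 1 clone of AQP1 (AW466173) and 3 clones of AQP3 (BF040026, BF041834 and BF040595). All 4 passed the filter on missing values and were among the 5537 clones tested. The 3 AQP3 clones share 1 target gene and are not replicates of a condition.

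Kidney RNA was put on a custom bovine cDNA array as 8 preparations, namely replicates 1 and K for every one of 4 rounds. Total RNA without amplification is round 0, and rounds 1, 2 and 3 are kidney RNA amplified linearly that many times. Each preparation was hybridised on 2 arrays, with kidney in Cy3 on one and in Cy5 on the other, against a reference standard RNA that had itself been amplified for 2 rounds. This makes 16 arrays. Only at round 2 had kidney and reference been amplified equally often. At rounds 0, 1 and 3 a difference in source RNA and a difference in amplification cannot be told apart in the ratio. The labels state neither the animals' age, sex or breed, nor the source tissue of the reference, nor whether replicates 1 and K are separate animals. The p-values therefore measure only the spread between these preparations, which may be technical. By its title the series tests linear amplification for use on single bovine embryos, so the question for a gene is whether its kidney over reference ratio stays the same after amplification.

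Water crosses the kidney tubule along 2 kinds of route that these genes represent. AQP1 forms the constitutive water pores of the proximal tubule and the thin descending limb, on both faces of the cell, and it is also made by endothelium and red blood cells. AQP3 passes glycerol as well as water and lies in the basolateral membrane of collecting duct principal cells, where water that entered through the vasopressin-controlled AQP2 leaves the cell.

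Values are kidney over reference ratios on the log2 scale, with the median of each array set to 0, so that a value of 0 is the typical clone and each unit is a factor of 2. The deposited values do not state which dye is on top of the ratio. Cy5 over Cy3 was taken as likely, because 27 tubule clones that include no aquaporin then had round 0 medians of 2.09 to 2.21 on all 4 arrays, with kidney in Cy3 and in Cy5 alike. With the other direction every sign below would turn. Arrays of 1 dye orientation correlated positively over all clones (0.273 to 0.793) and the arrays of a dye swap negatively (-0.557 to -0.142). A ratio was given for 83.9% to 95% of the spots per array, and no signal intensities were analysed here. Within an array, the 2 spots of a clone correlated at 0.496 to 0.822 over all clones. The 2 arrays of a preparation were averaged, so the 2 preparations of a round limit the precision.

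Tubule markers stood far from the typical clone at round 0. The direction of the ratio was chosen on these same lists, so their sign is no check of the kidney label. By limma's test at an adjusted p under 0.05, 7 of 9 tested proximal tubule clones stood above the typical clone and 0 below. Those above included the brush border peptidases ENPEP (5.58) and ANPEP (3.98). Of 12 collecting duct clones, 7 stood above, such as SCNN1A of the epithelial sodium channel (4.38), and 3 below, all of them clones of the keratins KRT8 and KRT18. Over all tested clones 19.6% stood above the typical clone and 19% below it at round 0. In whole kidney RNA, fewer cells of a type and less RNA per cell cannot be told apart.

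AQP1 lay far above the typical clone at every round. At round 0 its ratio was 4.44 in replicate 1 and 4.44 in replicate K. At round 1 it was 5.06 and 4.96, at round 2 it was 4.51 and 4.68, and at round 3 it was 4.49 and 3.83. All 8 preparations were at least 3.83 above the typical clone. The means were 4.44 ± 0.0035, 5.01 ± 0.07, 4.59 ± 0.12 and 4.16 ± 0.47 at rounds 0, 1, 2 and 3 (SD, n = 2 each), which are ratios of 21.7, 32.1, 24.2 and 17.9 on the linear scale.

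Each of these means differed from 0 in limma's moderated test, adjusted by Benjamini and Hochberg over all 5537 clones (adjusted p = 7.03e-05, 9.49e-05, 8.49e-05 and 0.000107). Limma called 16 of 16 ratios of the 4 AQP clones above the typical clone. Of all tested clones it called 19.6% at round 0, 16.9% at round 1, 16.5% at round 2 and 16.7% at round 3. With the ratio turned, these shares would be 19%, 20.9%, 18.6% and 18.4%. The test leaves out the spread of the reference, and kidney and reference were equally amplified only at round 2. By the size of its ratio AQP1 ranked 20 of 5537 at round 0, 3 at round 1, 3 at round 2 and 4 at round 3. With the ratio turned it would rank 5518, 5535, 5535 and 5534. A rank of the ratio says how far kidney and reference differ for a clone, not how abundant its RNA is.

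**Figure D1:**
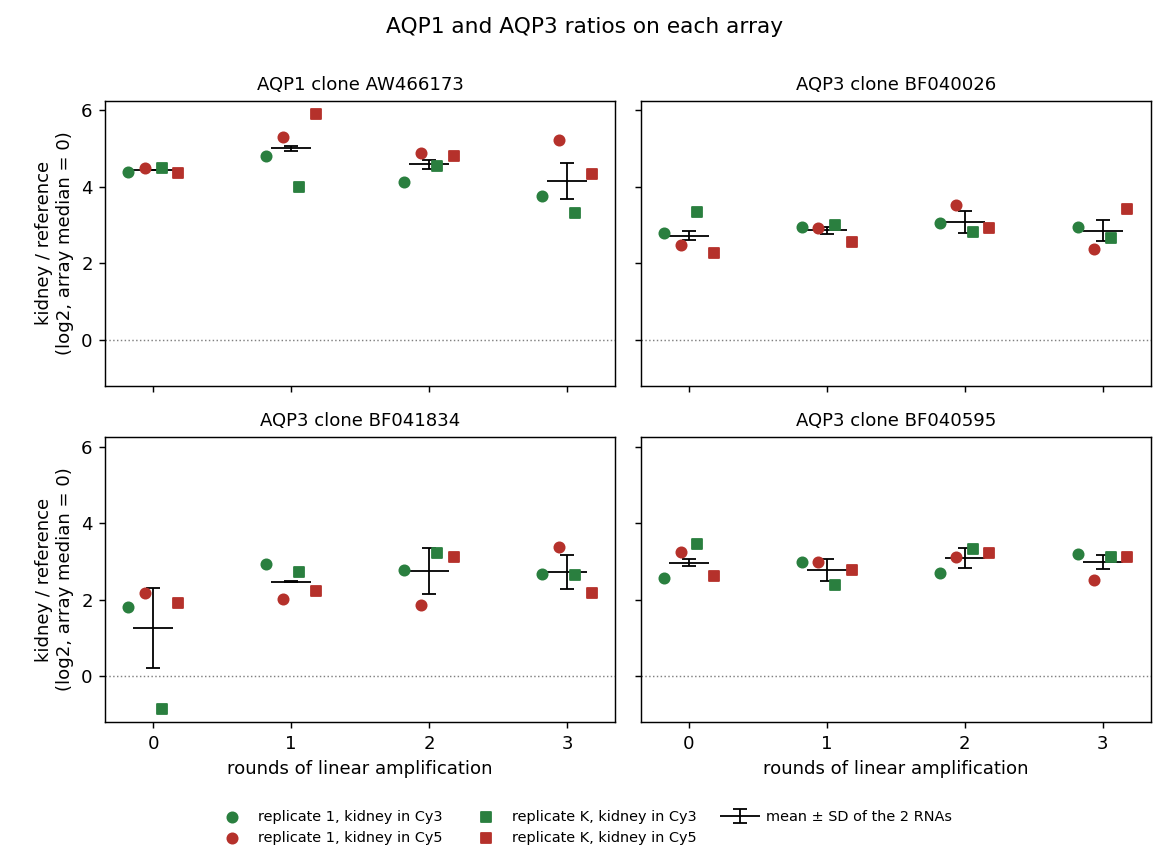
Kidney over reference ratio of each AQP clone (y axis, log2, array median at 0) on every array by round of amplification (x axis). Circles are replicate 1 and squares replicate K, green with kidney in Cy3 and red with kidney in Cy5, and the black bars are the mean ± SD of the 2 preparations. AQP1 spans 3.31 to 5.91 over the 16 arrays, and the only array below 0 is that of AQP3 clone BF041834 at round 0, replicate K, kidney in Cy3 (-0.86).

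When its 2 dye orientations were averaged, AQP3 clone BF040026 stayed within a narrow band, while its single arrays ran from 2.27 to 3.53. Its ratio in replicates 1 and K was 2.64 and 2.81 at round 0, 2.93 and 2.80 at round 1, 3.29 and 2.87 at round 2, and 2.67 and 3.05 at round 3. The means were 2.73 ± 0.12, 2.87 ± 0.10, 3.08 ± 0.29 and 2.86 ± 0.27 (SD, n = 2 each), or ratios of 6.62, 7.29, 8.46 and 7.26. All 4 passed limma's test against 0 (adjusted p from 0.000141 to 0.000195).

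AQP3 clone BF040595 gave like values. Replicates 1 and K had 2.90 and 3.04 at round 0, 2.98 and 2.57 at round 1, 2.91 and 3.27 at round 2, and 2.86 and 3.11 at round 3. The means were 2.97 ± 0.10, 2.78 ± 0.29, 3.09 ± 0.25 and 2.99 ± 0.18 (SD, n = 2 each), and each passed limma's test against 0 (adjusted p from 0.000139 to 0.000212). Over the 8 preparations its root mean square difference from BF040026 was 0.25. Against the clone BF041834 it was 1.02, and BF040026 and BF041834 differed by 0.97.

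AQP3 clone BF041834 was lower at round 0 and more scattered. Its ratio was 2.00 in replicate 1 and 0.52 in replicate K at round 0, 2.47 and 2.48 at round 1, 2.32 and 3.17 at round 2, and 3.03 and 2.42 at round 3. The means were 1.26 ± 1.04, 2.47 ± 0.0014, 2.75 ± 0.60 and 2.72 ± 0.44 (SD, n = 2 each). Rounds 1, 2 and 3 passed against 0 at an adjusted p of 0.00373, 0.00276 and 0.00287, and round 0 at 0.0409. The round 0 call was lost without round 0, replicate 1 (0.52, adjusted p = 0.387), without either replicate of round 1 (adjusted p = 0.0678 and 0.0675) and without either of round 3 (0.0551 and 0.0554). It was also lost with a replicate block (1.26, adjusted p = 0.055), and the mean was 2.00 without round 0, replicate K.

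Its low round 0 value came with 1 spot. On the round 0, replicate K array with kidney in Cy3, the second spot had a centred ratio of -3.32, while the first had 1.59, and the clone's other 3 arrays of round 0 stood at 1.82, 2.18 and 1.91. The 2 spots differed by 4.90, more than 99.81% of the duplicate pairs of clones with a listed gene. Without that spot, an alternative chosen after seeing the data, replicate K stood at 1.75 and the round 0 mean at 1.87 ± 0.18 (SD, n = 2), with an adjusted p of 0.00222 against 0. Of the 125 usable spot values of the 4 clones, 124 were above 0 and this spot alone was below.

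**Figure D2:**
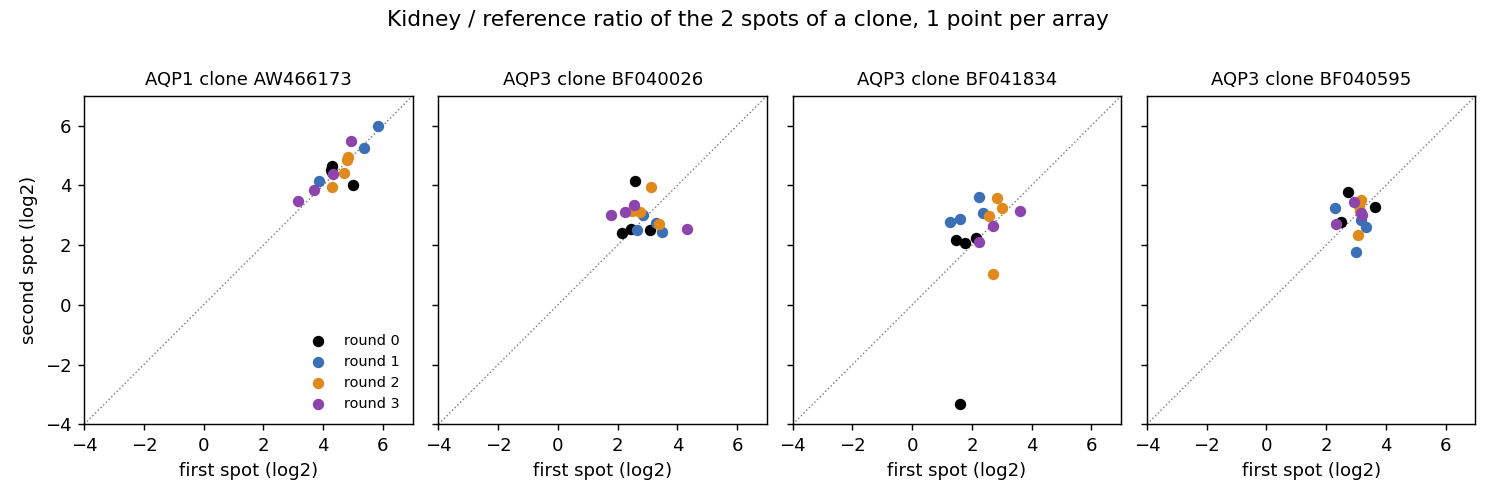
Centred kidney over reference ratio (log2) of the first printed spot (x axis) against the second (y axis) of each AQP clone, with 1 point per array on which both spots had a value, coloured by round, and the dotted line of equal values. Spots of AQP1 differed by a median of 0.25 and those of AQP3 clone BF041834 by a median of 0.69 and at most 4.90, at the single point far below the line.

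Averaged over its 3 clones, AQP3 had ratios of 2.51 and 2.12 in replicates 1 and K of round 0, 2.80 and 2.62 at round 1, 2.84 and 3.11 at round 2, and 2.85 and 2.86 at round 3. The SD between the clones within a preparation ran from 0.16 to 1.39 and was highest in round 0, replicate K, where the low spot lies. Over the 8 preparations it averaged 0.45. Of 149 genes with at least 3 tested clones, 39 had a smaller spread between their clones, and the median was 0.66. Clones BF040026, BF040595 and BF041834 ranked 77, 61 and 548 of 5537 at round 0, and between 40 and 88 at rounds 1, 2 and 3. With the ratio turned, they would rank 5461, 5477 and 4990 of 5537 at round 0 and between 5450 and 5498 at the later rounds.

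**Figure D3:**
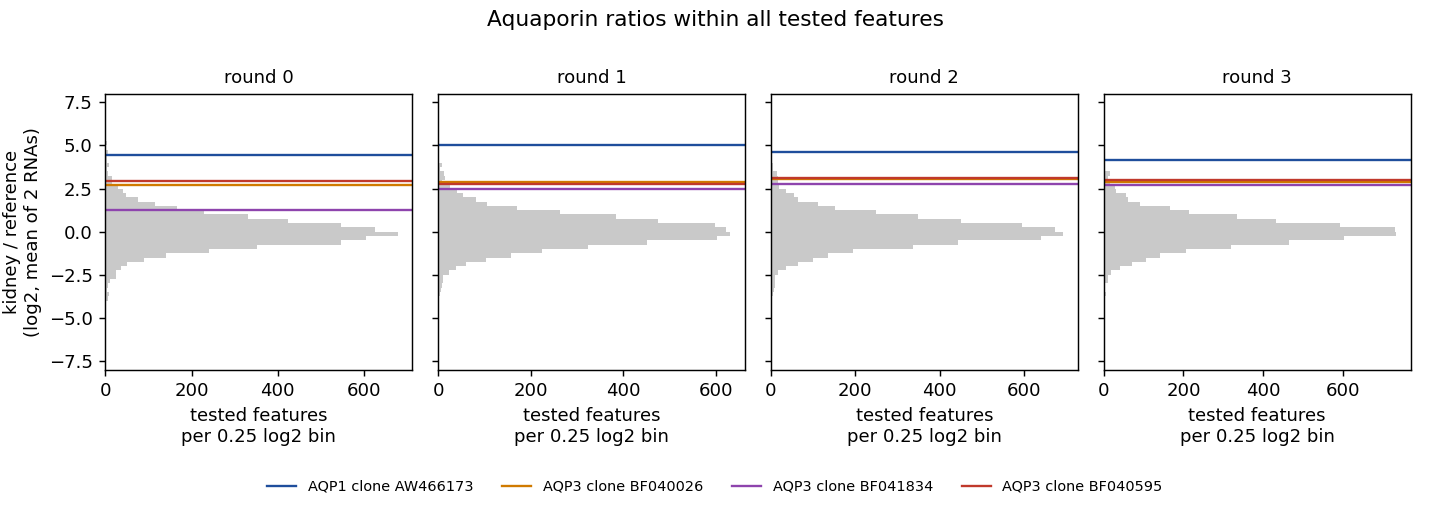
Number of tested clones (x axis) by their mean kidney over reference ratio (y axis, log2, grey bars of 0.25) at each round, with the 4 AQP clones as coloured lines. AQP1 lies at the upper edge of the distribution at each round (4.44, 5.01, 4.59 and 4.16), and AQP3 clone BF041834 lies closer to the bulk at round 0 (1.26) than at rounds 1, 2 and 3 (2.47, 2.75 and 2.72).

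The comparison of rounds asks whether amplification moved these ratios. None of the 4 clones was called in any of the 6 pairs of rounds: 0 of 24 comparisons passed limma's test at an adjusted p under 0.05, and 3 had an unadjusted p under 0.05. How many of all tested clones had an unadjusted p under 0.05 was not counted, here or for the lists below. Of all tested clones, limma called 13.3% at round 1 against round 0, 11.2% at round 2 and 11.6% at round 3 against round 0, 0% at round 2 against round 1, 0.289% at round 3 against round 1 and 0% at round 3 against round 2. Limma's moderated F test for any difference among rounds called 7.59% of tested clones and 0 of these 4 (adjusted p = 0.198 for AQP1, 0.682 for BF040026, 0.751 for BF040595 and 0.205 for BF041834), with 0 of 4 also at an unadjusted p under 0.05. A missed threshold does not show that the ratios were equal, and the intervals below give the sizes that remain possible.

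AQP1 was highest at round 1, followed by rounds 2, 0 and 3. Neighbours in that order were not told apart: the log2 difference was -0.41 ± 0.26 (SE) for round 2 minus round 1 (95% interval -1.05 to 0.23, adjusted p = 0.631), 0.16 ± 0.26 for round 2 minus round 0 (-0.48 to 0.80, adjusted p = 0.724) and -0.28 ± 0.26 for round 3 minus round 0 (-0.91 to 0.36, adjusted p = 0.516). The widest difference was that of round 3 and round 1, at 4.16 and 5.01. It came to -0.85 ± 0.26 (SE, n = 2 each), with an interval of -1.48 to -0.21, an unadjusted limma p of 0.0172 and an adjusted p of 0.156. The 2 round 3 values lay below both of round 1, as did those of 52.6% of all tested clones on one side or the other. The difference was -0.86 with kidney in Cy3 and -0.83 with kidney in Cy5. It was -0.20 without centring. For AQP1 the replicates also lay apart at round 2 minus round 0, round 2 minus round 1 and round 3 minus round 2. The same held for 64.3%, 40.7% and 38.4% of tested clones. The AQP1 replicates overlapped at round 3 minus round 0.

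Round 1 minus round 0 was 0.57 ± 0.26 for AQP1 (SE, n = 2 each, interval -0.07 to 1.21, adjusted p = 0.195). The replicates of the rounds did not overlap, as for 64% of tested clones. It was -0.04 with kidney in Cy3 and 1.18 with kidney in Cy5. Without centring it was -0.44, where the median of all tested clones shifted by -1.04, so that AQP1 stood higher at round 1 only relative to the typical clone.

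With both dye orientations averaged, BF040026 and BF040595 moved least. Against round 0 they differed by 0.14 ± 0.25 and -0.19 ± 0.25 at round 1, by 0.35 ± 0.25 and 0.12 ± 0.25 at round 2, and by 0.13 ± 0.25 and 0.02 ± 0.25 at round 3 (SE, n = 2 each, adjusted p from 0.378 to 0.969). Without centring the round 1 differences were -0.87 and -1.20. Over the 6 centred differences the 95% intervals ran from -0.79 at the lowest to 0.95 at the highest. The dye orientations of BF040026 went opposite ways at rounds 1, 2 and 3 against round 0. It differed by -0.09, -0.14 and -0.26 with kidney in Cy3, and by 0.37, 0.85 and 0.53 with kidney in Cy5. For BF040595 the differences were -0.32, 0.01 and 0.15 in Cy3, and -0.06, 0.23 and -0.12 in Cy5. The replicates of BF040026 lay apart only at round 2 minus round 0, as for 64.3% of tested clones. Those of BF040595 overlapped in every pair of rounds. The means of the 4 rounds spanned 0.35 for BF040026 and 0.31 for BF040595, against a median span of 0.91 over all tested clones, and 8.5% and 6.6% of tested clones had a smaller one. The span was 0.85 for AQP1, with 45% of tested clones below it.

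BF041834 had the largest differences of the 4 clones, all of them against its low round 0. Round 1 minus round 0 was 1.21 ± 0.54 (SE, n = 2 each, interval -0.08 to 2.51, adjusted p = 0.18). Round 2 minus round 0 was 1.49 ± 0.54 (0.19 to 2.78, adjusted p = 0.124) and round 3 minus round 0 was 1.46 ± 0.54 (0.17 to 2.76, adjusted p = 0.123), each with an unadjusted p under 0.05 (0.0308 and 0.0325). In each of these 3 pairs the replicates did not overlap, as for 64%, 64.3% and 65.1% of tested clones. Without the 1 low spot the differences were 0.60, 0.87 and 0.85 (adjusted p = 0.287, 0.153 and 0.158). With kidney in Cy3 they were 2.34, 2.52 and 2.19, and with kidney in Cy5 they were 0.09, 0.46 and 0.74. Among amplified rounds this clone differed by 0.27, 0.25 and -0.02 (rounds 2 and 1, 3 and 1, 3 and 2).

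**Figure D4:**
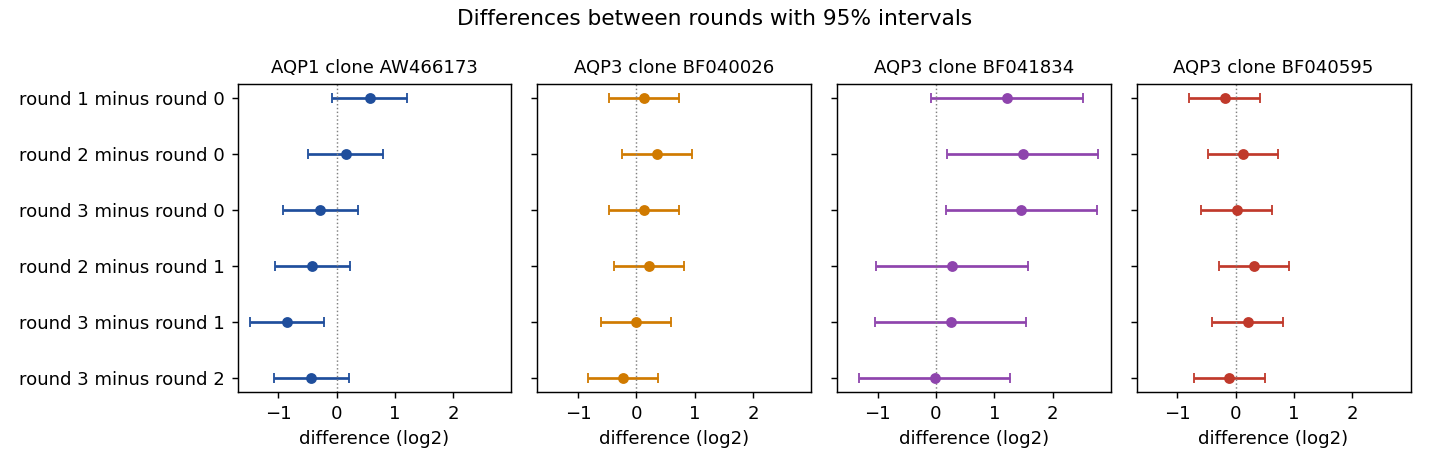
Difference in log2 kidney over reference ratio between 2 rounds (x axis) for the 6 pairs of rounds (y axis) and each AQP clone; points are limma estimates and bars 95% intervals not adjusted for the number of clones. The intervals of BF040026 and BF040595 include 0 in all 6 pairs, and those that leave it out are round 3 minus round 1 for AQP1 and rounds 2 and 3 minus round 0 for BF041834.

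AQP1 and AQP3 were not compared in level, since ratios of different clones are set by the reference as well. Their courses can be set side by side. From the mean of its clones, AQP3 stood at 2.32 ± 0.28, 2.71 ± 0.13, 2.97 ± 0.19 and 2.86 ± 0.0064 at rounds 0 to 3 (SD, n = 2 each), while AQP1 was highest at round 1. The AQP3 mean at round 0 includes BF041834 at 1.26, or 1.87 without its low spot. BF040026 and BF040595 stood at 2.73 and 2.97 there. Whether the courses differ was not tested. A difference in processing between round 0 and later rounds cannot be told apart from amplification: the 4 round 0 arrays were deposited with 3 decimals in every value, and the 12 others with 3 decimals in 83.2% to 88.2% of values.

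The 2 dye orientations of AQP1 lay close together at round 0 and further apart in amplified RNA, a difference that was not tested. It is not particular to AQP1, since the dye swaps also agreed less in amplified RNA over all clones. Their correlation was -0.557 and -0.539 at round 0, and between -0.461 and -0.142 at the later rounds. How many of all clones had a gap in 1 direction in every amplified preparation was not counted. With kidney in Cy3 the AQP1 ratio was lower than with kidney in Cy5 in all 6 amplified preparations, by 0.27 to 1.91, while at round 0 the Cy3 value minus the Cy5 value was -0.09 and 0.13. The gaps of BF040026 ran from -0.75 to 1.08 and those of BF040595 from -0.69 to 0.82, in both directions. BF041834 had the widest gaps of the 4 clones, from -2.77 to 0.90. The signed median gap was -0.63 for AQP1 and -0.19 over all listed clones. The median gap in size was 0.63 for AQP1, 0.46 for BF040026, 0.40 for BF040595 and 0.59 for BF041834, beside 0.60 over all listed clones.

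AQP11 was the only other aquaporin with a clone. It is an intracellular member of the family, known from mice to be needed in the proximal tubule. Relative to the typical clone it stood at 0.30, -0.58, -0.58 and -0.62 at rounds 0 to 3. Replicates 1 and K had 0.51 and 0.09 at round 0, against -0.85 and -0.30 at round 1, -0.86 and -0.30 at round 2, and -0.91 and -0.33 at round 3, so that all 6 amplified values lay below both of round 0. Replicates likewise did not overlap with round 0 in 64%, 64.3% and 65.1% of tested clones at rounds 1, 2 and 3. The differences from round 0 were -0.88, -0.88 and -0.92 (SE 0.35 each, n = 2), and none passed limma's test (adjusted p = 0.143, 0.146 and 0.133). Without centring they were -1.89, -0.98 and -1.28, and that of round 1 was called.

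The osmotic response and vasopressin list had 12 tested clones of 7 genes. At round 1, limma called RAB11A, a GTPase of recycling vesicles, higher by 1.21 ± 0.19 (adjusted p = 0.0173), and AKR1B1, the aldose reductase that makes the osmolyte sorbitol, lower by a log2 difference of -1.76 ± 0.35 (adjusted p = 0.0295). The second RAB11A clone was not called (adjusted p = 0.103). At rounds 2 and 3 limma called 0 of 12, with 5 and 6 at an unadjusted p under 0.05. Without the share of all tested clones at that threshold, these counts show nothing particular to the list. The list's median difference from round 0 was 0.24, 0.60 and 0.47 at rounds 1, 2 and 3, beside -0.03, 0.01 and 0.00 over all tested clones.

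Among markers of the tubule segments that hold the channels, some were called lower, and most were not called, like the AQP clones. Whether the markers and the AQP clones differ in their change was not tested. Of all tested clones, limma called 5.4%, 4.39% and 4.57% higher and 7.87%, 6.79% and 7.04% lower at rounds 1, 2 and 3 against round 0. Of 9 proximal tubule clones, 2 fell at each of rounds 1, 2 and 3 and 0, 1 and 1 rose. The plasma glutathione peroxidase GPX3 fell, with log2 differences of -2.17, -3.15 and -5.05. One clone of the peptidase MME fell too, with -1.05, -1.40 and -1.43, and its other clone was not called (-0.66, -3.05 and -1.51), while the fatty acid transporter SLC27A2 rose by 1.41 and 1.43 at rounds 2 and 3. The median difference of the list was -0.38, -0.54 and -0.62. Of 12 collecting duct clones, 1, 1 and 3 fell and 0 rose, with medians of -0.32, -0.48 and -0.21. A clone of the carbonic anhydrase CA12 fell, with log2 differences of -2.13, -2.61 and -2.45, while its other clone was not called (1.41, 0.54 and 0.43). At round 3 a clone of the transcription factor GATA3 fell (-1.86), the other was not called (-0.37, adjusted p = 0.87), and SCNN1A fell (-1.70, adjusted p = 0.0258). Of 5 thick limb and distal clones, limma called 0 at every round, with 1, 0 and 2 at an unadjusted p under 0.05 and medians of -0.32, -0.56 and -0.57.

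Cells other than tubule cells that make AQP1 or AQP3 were covered by few markers. The single red blood cell clone, of the glycophorin GYPC, stood at 0.66, 1.29, 1.64 and 1.78 at rounds 0 to 3 and was not called against round 0 (adjusted p = 0.376, 0.198 and 0.146). The red blood cell list held 11 genes, globins among them, and only GYPC had a clone with a single listed symbol. Of 9 endothelial clones, 1, 2 and 1 rose and 2, 2 and 2 fell. PLVAP, a protein of endothelial pores, rose by 2.92, 2.84 and 1.85, and the cadherin CDH5 fell, with -1.80, -1.82 and -1.71. One clone of the adhesion molecule PECAM1 fell, with -1.85, -2.58 and -2.06, and its other clone rose by 1.17 at round 2. Medians were 0.10, 0.18 and -0.59. Of 10 stroma clones 1, 1 and 1 rose (a clone of TAGLN of smooth muscle, by 1.33, 1.22 and 1.15) and 1, 0 and 0 fell (a clone of fibronectin FN1, at -1.15), with medians of 0.53, 0.34 and 0.33. The other TAGLN clone was not called (1.33, 0.74 and 0.08), nor was the other FN1 clone (-1.03, -0.79 and -0.32). Of 8 leukocyte clones, 1, 0 and 2 rose (IGHM by 1.07 at round 1, BOLA-DRA by 2.41 and a clone of LCP1 by 1.14 at round 3) and 0 fell, with 2 at an unadjusted p under 0.05 at round 2 and medians of 0.48, 0.49 and 0.71. The other LCP1 clone stood at -0.25 at round 3 and was not called (adjusted p = 0.42). The part of these cells in the AQP ratios was not tested. Without centring no called increase in the lists turned negative, but the round 1 medians did, at -0.77 for the osmotic list, -0.91 for endothelium, -0.48 for stroma, -0.53 for leukocytes and -0.38 for the red blood cell clone, as did the round 2 median of endothelium (-0.04).

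Clones were compared with AQP1 by the root mean square difference of the log2 ratio over the 8 preparations. This measure takes in level as well as course. The nearest were 1 clone of S100G, the vitamin D-dependent calcium-binding protein (0.46), and the zinc finger gene ZNF350 (0.61). Next came PDZK1IP1, a membrane protein of the proximal tubule (0.67), 1 clone of GATA3 (0.68) and LOC338050 (0.75). At rounds 0 to 3, this S100G clone had 5.09, 4.44, 4.53 and 4.21 and PDZK1IP1 had 4.67, 4.09, 4.36 and 3.93. Of these clones, ZNF350 alone had a higher mean at round 1 (5.32) than at round 0 (4.56), as AQP1 did. That AQP1 difference was not called by limma (adjusted p = 0.195). The other S100G clone had 3.13, 2.81, 2.85 and 2.73, and the other GATA3 clone 2.62, 0.435, -0.72 and 2.25. The mean of the AQP3 clones includes the low round 0 spot of BF041834. Nearest to that mean were AK4, a mitochondrial adenylate kinase (0.26), and the multivitamin transporter SLC5A6 (0.27). Then followed 1 clone of MBP, myelin basic protein (0.27), CPT1A, which starts fatty acid import into mitochondria (0.27), and the macrophage gene MPEG1 (0.27). AK4 had 2.62, 2.71, 2.92 and 2.86.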

How the data were processed

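For 15 arrays the authors deposited log2 ratios between the dye channels. The authors' column for the round 1, replicate 1 array with kidney in Cy3 mixes such ratios with far larger numbers and is called a score as a whole. How images were read, background was corrected and ratios were normalized is not stated in the sources used here. Ratios beyond 10 in size, among them the recurring 16.61, were treated as missing. Spots with the same annotation at both printings were averaged as duplicates, arrays with kidney in Cy3 were turned, the median of the 5693 clones with a listed gene was subtracted from each array, and the 2 arrays of each preparation were averaged. Annotation symbols matched a current gene table for both members.

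Clones measured in all 8 preparations (5537) were fitted in R 4.3.3 by limma 3.58.1 (tables were read with data.table, version 1.17.8), with a mean for each round, 4 residual and 2.4 prior degrees of freedom, and p-values adjusted by Benjamini and Hochberg with a threshold of 0.05. The fit was tested on simulated data. Named genes are all clones of AQP1 and AQP3, other aquaporins, the 5 clones nearest to each gene over the 8 preparations, and the 2 largest called changes each way against round 0 in each list. SCNN1A at round 3, the second clones named and the tubule markers given at round 0 were chosen after their values were seen. The members and lists were chosen with earlier results of these data known. Alternatives were other centring and scaling, dyes, spots, filters, fits and left-out preparations. Residuals of replicate 1 correlated between rounds at -0.046 to 0.169, above 0.1 in 1 of 6 pairs, so the replicate numbers were not taken as pairs. Sequences and genome positions were not used here.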

Additional observations from a re-analysis of the deposited data

Results flagged for a closer look

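In each of the 16 sets of 4 arrays (4 clones at 4 rounds), the highest and the lowest array were compared with the rest by Dixon's test at the 95% level, which flags about 1 set in 20 by chance, and arrays of a dye swap share their RNA. AQP3 clone BF041834 had 1 array far below the other 3 at round 0, that of replicate K with kidney in Cy3 at -0.86, where the others stood at 1.82, 1.91 and 2.18. AQP3 clone BF040595 had 1 array below the other 3 at round 3, that of replicate 1 with kidney in Cy5 at 2.52, where the others stood at 3.19, 3.11 and 3.12.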

How the results depend on the processing

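In 25 alternatives, 3 of them chosen after seeing the data, limma called 0 of 600 round comparisons of the 4 clones (lowest adjusted p = 0.0511, BF040595 at round 1 against round 0 without centring) and 0 of 96 F tests. All 288 tests of AQP1, BF040026 and BF040595 against 0 were called above 0. BF041834 lost its round 0 call with Cy3 arrays only (0.48), second spots only (0.79), features without a listed gene tested too (1.26, adjusted p = 0.0518) and the replicate block (1.26), and it ran from 0.52 to 2.00 when 1 preparation was left out. The replicate block changed no other call of the 4 clones, and gave 629 calls over all clones at round 1 against round 0, where there were 735 (299 higher, 436 lower) without it. That count was 1868 (39 higher, 1829 lower) without centring, 2 in a fit of this pair of rounds alone, 1289 with all 16 arrays and dye as a term, 1009 with Cy3 and 207 with Cy5 arrays, 389 and 378 with first and second spots, 346 without the round 1, replicate 1, Cy3 array, and 108 to 464 when 1 preparation was left out (lowest without round 1, replicate K). At rounds 2 and 3 against round 0 the counts were 619 and 643. They were 67 and 130 without centring, 148 and 257 in fits of 1 pair of rounds, 1244 and 1322 with dye as a term, 507 and 391 with Cy3 arrays, 252 and 475 with Cy5 arrays, 323 and 366 with first spots, 367 and 409 with second spots, and 340 and 310 without the round 1, replicate 1, Cy3 array. They ran from 22 (without round 2, replicate 1) to 528 and from 91 (without round 3, replicate K) to 541 when 1 preparation was left out. Uncalled differences changed sign in 53 cases, and the cause was not tested. Without centring these were, against round 0, AQP1 (-0.44) and BF040026 (-0.87) at round 1, BF040026 (-0.23) and BF040595 (-0.35) at round 3, then AQP1 for rounds 2 and 1 (0.50) and BF040026 for rounds 3 and 1 (0.64). Centring on all features gave 0.047 for BF040026, rounds 3 and 1. Scaling to 1 median absolute deviation, in units of that deviation, gave -0.17, 0.19 (BF040026, rounds 1 and 0, 3 and 1), -0.012, -0.11 (BF040595, rounds 2 and 0, 3 and 0), -0.086 (AQP1, rounds 2 and 0) and 0.017 (BF041834, rounds 3 and 2). Cy3 arrays gave -0.091, -0.14, -0.26 and -0.051 for BF040026 (rounds 1, 2 and 3 against 0, and 2 against 1), -0.042 and -0.11 for AQP1 (rounds 1 and 2 against 0), -0.15 for BF041834 (3 against 1) and 0.14 for BF040595 (3 against 2). Cy5 arrays gave -0.12 and -0.056 for BF040595 (3 against 0 and 1), 0.35 for AQP1 (3 against 0), 0.16 for BF040026 (3 against 1) and 0.29 for BF041834 (3 against 2). First spots gave 0.052 and -0.015 for BF040595 (1 against 0, 3 against 1), -0.11 for BF040026 (2 against 1) and 0.022 for BF041834 (3 against 2). Second spots gave -0.19 and 0.25 for BF040026 (1 against 0, 3 against 1), -0.016 and -0.061 for BF040595 (2 and 3 against 0), and -0.41 and -0.67 for BF041834 (2 and 3 against 1). BF040026 had 0.0016 (3 against 1) without the round 1, replicate 1, Cy3 array and -0.085 (3 against 0) without spots on ratios of small whole numbers, and BF040595 had 0.016 (1 against 0) without the round 0, replicate K, Cy3 array. Leaving out single preparations gave ranges of -0.11 to 0.15, -0.39 to 0.016, -0.055 to 0.30 and -0.29 to 0.072 for BF040595 (3, 1 and 2 against 0, 3 against 2), -0.20 to 0.19 and -0.061 to 0.33 for BF040026 (3 against 1 and 0), -0.16 to 0.70, -0.45 to 0.41 and -0.059 to 0.56 for BF041834 (2 against 1, 3 against 2 and 1), and -0.61 to 0.055 for AQP1 (3 against 0). Without centring, where the median of all tested clones was -1.04, -0.08 and -0.34 at rounds 1, 2 and 3 against round 0, list calls at these rounds were 5, 1 and 1 for proximal tubule and 5, 0 and 1 for collecting duct. They were 1 at round 1 for AQP11, 1 and 1 at rounds 2 and 3 for endothelium, 0 and 0 there for stroma, and 2 and 0 at rounds 1 and 3 for leukocytes.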

Other observations

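Some deposited ratios fall exactly, to 3 decimals, on the log2 of a whole number from 1 to 30 or of its inverse. This was so for 0 of 31 spot values of AQP1, and for 3 of 32 of AQP3 clone BF040026, 4 of 31 of BF041834 and 1 of 31 of BF040595. Among all clones with a listed gene it was 8443 of 169318 (5%). The low second spot of BF041834 at round 0 was among them, with a deposited log2 ratio of 1.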
